A study of Mus musculus with 12 samples.

Results

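The cell cycle genes described here are 42 protein-coding mouse genes whose messenger RNAs are best known for accumulating either in S phase, when DNA is copied, or in G2 and M phase, when chromosomes condense and separate. They were chosen by symbol, 19 for S phase and 23 for G2 and M phase, out of 55291 symbols in the deposited count table, and all 42 were among the 15674 genes abundant enough to be tested. Bulk RNA was sequenced from non-adherent bone marrow progenitor cells of mice about 8 weeks old, after about 24 hours of culture in alpha-MEM medium, in 12 libraries. The homozygous SCFA group held 3 libraries from STAT3Cstopfl/fl CD4Cre mice given SCFA (short-chain fatty acids) in their drinking water. The control SCFA group held 3 libraries from mice labelled control that drank SCFA, the homozygous untreated group 3 libraries from the same floxed genotype without SCFA (the label of replicate 1 writes R26STAT3Cstopfl/fl CD4Cre), and the control untreated group 3 libraries from control mice without SCFA. STAT3C is a constitutively active form of the transcription factor STAT3, here behind a floxed stop cassette at the Rosa26 locus. The Cre that removes the cassette is driven by the CD4 promoter, which is active mainly in T cells, so the active form is expected in T cells rather than in most marrow progenitors. The labels do not say which alleles the control mice carry, whether replicates came from separate mice or whether marrow was pooled, and p-values therefore measure the spread between these libraries, which may be technical. The labels carry 1 March on every untreated library and 30 March on every SCFA library without saying what the date marks, so that treatment and label date cannot be told apart.

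The library totals lay between 16954355 and 20748995 counts. Stat3 had 363 ± 40.3 CPM in homozygous SCFA and 239.7 ± 13.9 CPM in control SCFA libraries, and 294 ± 27.3 CPM in homozygous untreated and 357 ± 82.0 CPM in control untreated libraries (mean ± SD, n = 3 each); the count cannot separate the transgene's reads from those of the endogenous gene. Of the markers of the labelled cell type, the 8 stem and progenitor genes were detected in all 4 groups. Under SCFA they summed to 238 to 244 CPM per library in homozygous and 191.5 to 209 CPM in control libraries. Without SCFA they summed to 228 to 245 CPM in homozygous and 190 to 212 CPM in control libraries. Of the 7 tested, 2 rose between the genotypes under SCFA and 1 without it. The 10 genes of late neutrophils summed to 37675 to 78651 CPM. The control untreated libraries were spread along the second principal component, at 4.63, 87.4 and 41.5 for replicates 1, 2 and 3. Replicate 2 lay farthest out, but replicates 1 and 3 lay apart as well. Counts of called members that moved by more than 1.5 times without control untreated replicate 2 are given both ways.

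Proliferating cells copy their genome once per division. Before S phase the MCM2-7 helicase is loaded at origins by CDC6 and others, cyclin E with CDK2 fires the origins, and the E2F1 transcription factor drives many of the genes involved. During S phase PCNA clamps the polymerases to DNA, and ribonucleotide reductase (RRM1, RRM2) and thymidylate synthase (TYMS) make the deoxynucleotides. Afterwards cyclin B1 and CDK1 start mitosis, kinesins, centromere proteins and topoisomerase II shape the spindle and the chromosomes, the BUB1, BUB1B and TTK kinases hold the spindle checkpoint, and CDC20 and UBE2C with the anaphase-promoting complex end it. In marrow these messenger RNAs are typical of dividing progenitors of the erythroid, lymphoid and granulocyte lineages and are low in mature neutrophils.

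The promoters of the members the results turn on are shown because S phase and G2 and M phase genes are known for different control elements. E2F sites are typical of the first, and a cell cycle homology region (CHR, TTTGAA or TTTAAA), often with CCAAT boxes upstream of it, of the second. RefSeq windows from 250 bases before to 50 bases after the start on GRCm38.p6 (the assembly also called mm10) matched 35 of the 42 members by symbol. TTTGAA lay in a window of 14 of 19 G2 and M phase genes and of 2 of 16 S phase genes. Of all 32851 windows of that length, 17.9% held it, with both strands searched. Members were counted per gene, by a match in any window of the gene, while the share over all is per window. The E2F and TTTAAA matches of Uhrf1 lay only in its window 2. TTTGAA or TTTAAA lay in 17 of 19 and in 6 of 16 (27.6% of all windows), and CCAAT in 17 of 19 and in 11 of 16 (37.4% of all). Any of the E2F forms TTTGGCGC, TTTGCCGC, TTTCGCGC and TTTCCCGC lay in 1 of 19, that of Cdk1, and in 6 of 16 (2.26% of all). These are matches of letters, not measured sites. The stretches below run 5′ to 3′ on the gene's strand, with the searched letters, or their reverse complement, in capitals. They begin at -150 from the RefSeq start and end between -27 (Cdk1) and -1. Matches of the window outside them are not shown, among them TTTGAA at -15 of Cdk1 and CCAAT at -8 of Cdc20. Those of Kif11, Top2a, Cdk1 and Cdc20 stand for G2 and M phase, and those of Rrm2, Mcm6 and Mcm2 for S phase. In that of Mcm6 a forward and a reverse E2F form overlap in the first capital run.
Kif11 (chr19:37376232-37376381, plus strand): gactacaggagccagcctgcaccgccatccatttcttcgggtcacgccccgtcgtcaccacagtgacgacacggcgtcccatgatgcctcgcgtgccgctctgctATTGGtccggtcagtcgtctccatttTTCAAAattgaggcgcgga
Top2a (chr11:99024190-99024339, minus strand): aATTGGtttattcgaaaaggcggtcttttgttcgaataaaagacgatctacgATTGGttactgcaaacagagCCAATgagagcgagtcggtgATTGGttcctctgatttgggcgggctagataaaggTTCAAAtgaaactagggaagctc
Cdk1 (chr10:69352939-69353062, minus strand): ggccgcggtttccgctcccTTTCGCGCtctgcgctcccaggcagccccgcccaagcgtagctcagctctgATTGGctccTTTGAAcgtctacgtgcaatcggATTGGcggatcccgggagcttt
Cdc20 (chr4:118437353-118437493, minus strand): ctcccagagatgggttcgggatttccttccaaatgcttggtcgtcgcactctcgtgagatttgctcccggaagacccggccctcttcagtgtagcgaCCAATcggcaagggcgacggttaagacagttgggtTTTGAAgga
Rrm2 (chr12:24708104-24708240, plus strand): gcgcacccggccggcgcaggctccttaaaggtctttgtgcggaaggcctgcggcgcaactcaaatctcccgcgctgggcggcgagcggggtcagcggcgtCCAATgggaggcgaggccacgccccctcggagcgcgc
Mcm6 (chr1:128359706-128359855, minus strand): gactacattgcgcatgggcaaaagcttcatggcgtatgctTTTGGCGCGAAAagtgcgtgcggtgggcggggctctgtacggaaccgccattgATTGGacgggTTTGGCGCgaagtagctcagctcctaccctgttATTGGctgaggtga
Mcm2 (chr6:88898781-88898930, minus strand): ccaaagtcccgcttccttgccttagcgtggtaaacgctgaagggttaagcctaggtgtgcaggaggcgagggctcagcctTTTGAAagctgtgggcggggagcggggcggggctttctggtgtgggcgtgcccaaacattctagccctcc

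Levels are given as CPM (counts scaled to a common library total) after correcting each library with a TMM factor. Every member was detected in every library, with 80 to 13890 counts. Per kilobase of the longest coding transcript, Rrm2, the regulated subunit of ribonucleotide reductase, was the most abundant member with 147 CPM per kb averaged over the 12 libraries. Slbp, which binds the stem-loop of histone messages, averaged 119 CPM per kb (91.6 to 142 over the libraries), and Top2a, the DNA topoisomerase of dividing cells, 111 CPM per kb (68.2 to 141). Their order is not settled. Within the MCM2-7 helicase, whose 6 subunits form 1 ring in equal number, the messages ranged between 21.7 CPM per kb for Mcm2 and 47.1 CPM per kb for Mcm6. At the low end lay E2f1 with 8.28, Cdc6 with 7.35, Cenpf with 5.92 and Gins2, a subunit of the replicative helicase's GINS complex, with 2.30 CPM per kb.

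Summed over the phase lists, both lists were on average highest in homozygous untreated libraries and lowest in homozygous SCFA libraries. The 19 S phase genes summed to 1804, 1846 and 1911 CPM in homozygous SCFA libraries, against 1982, 2106 and 2103 CPM in control SCFA libraries. Without SCFA they summed to 2409, 2450 and 2362 CPM in homozygous untreated libraries, against 1989, 2084 and 2065 CPM in control untreated libraries. With TMM factors homozygous libraries thus lay below all controls under SCFA and above all controls without it. With library totals and no TMM factor the separation without SCFA was lost, with 2277 to 2346 CPM in homozygous untreated and 2032 to 2291 CPM in control untreated libraries. The mean was then 2315 CPM in homozygous untreated and 2184 CPM in control untreated libraries, beside 2407 CPM in homozygous untreated and 2046 CPM in control untreated libraries with TMM factors. The 23 G2 and M phase genes summed to 2292, 2048 and 2153 CPM in homozygous SCFA libraries, against 2516, 2723 and 2756 CPM in control SCFA libraries. Without SCFA the same genes summed to 2854, 2976 and 2930 CPM in homozygous untreated libraries, against 2367, 2155 and 2465 CPM in control untreated libraries. Between the genotypes the groups stood in the same positions as for S phase, but between treatments they did not. For G2 and M phase, control SCFA libraries lay above all control untreated libraries, and homozygous SCFA libraries overlapped control untreated libraries. For S phase the 2 control groups overlapped, and homozygous SCFA libraries lay below all control untreated libraries. With library totals the 2 control groups overlapped for G2 and M phase as well. The sums give most weight to abundant genes, and single genes were split. For homozygous against control libraries, 10 S phase genes had a positive and 9 a negative log2 fold change under SCFA. Without SCFA 11 were positive and 8 negative. Of the G2 and M phase genes 8 were positive and 15 negative under SCFA, and 15 were positive and 8 negative without it. In bulk RNA, fewer dividing cells and less of the cell cycle RNAs per cell cannot be told apart.

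**Figure D1:**
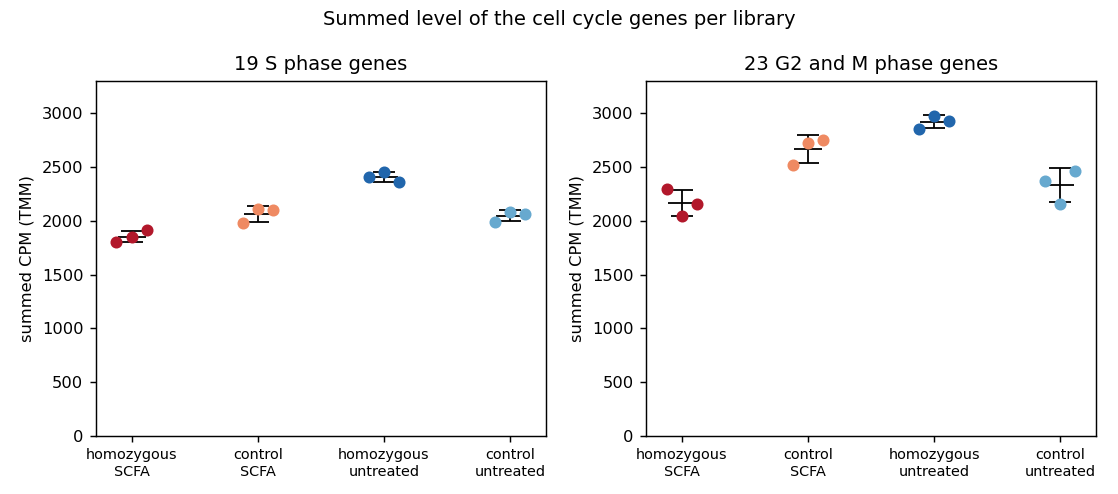
Summed CPM (TMM factors) of the 19 S phase genes (left) and the 23 G2 and M phase genes (right) in each library; points are libraries, the horizontal mark is the group mean and the whiskers are 1 SD (n = 3). Homozygous libraries lie below the controls under SCFA (1804 to 1911 against 1982 to 2106 CPM for S phase) and above them without SCFA (2362 to 2450 against 1989 to 2084 CPM). Abundant genes weigh most in each sum.

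**Figure D2:**
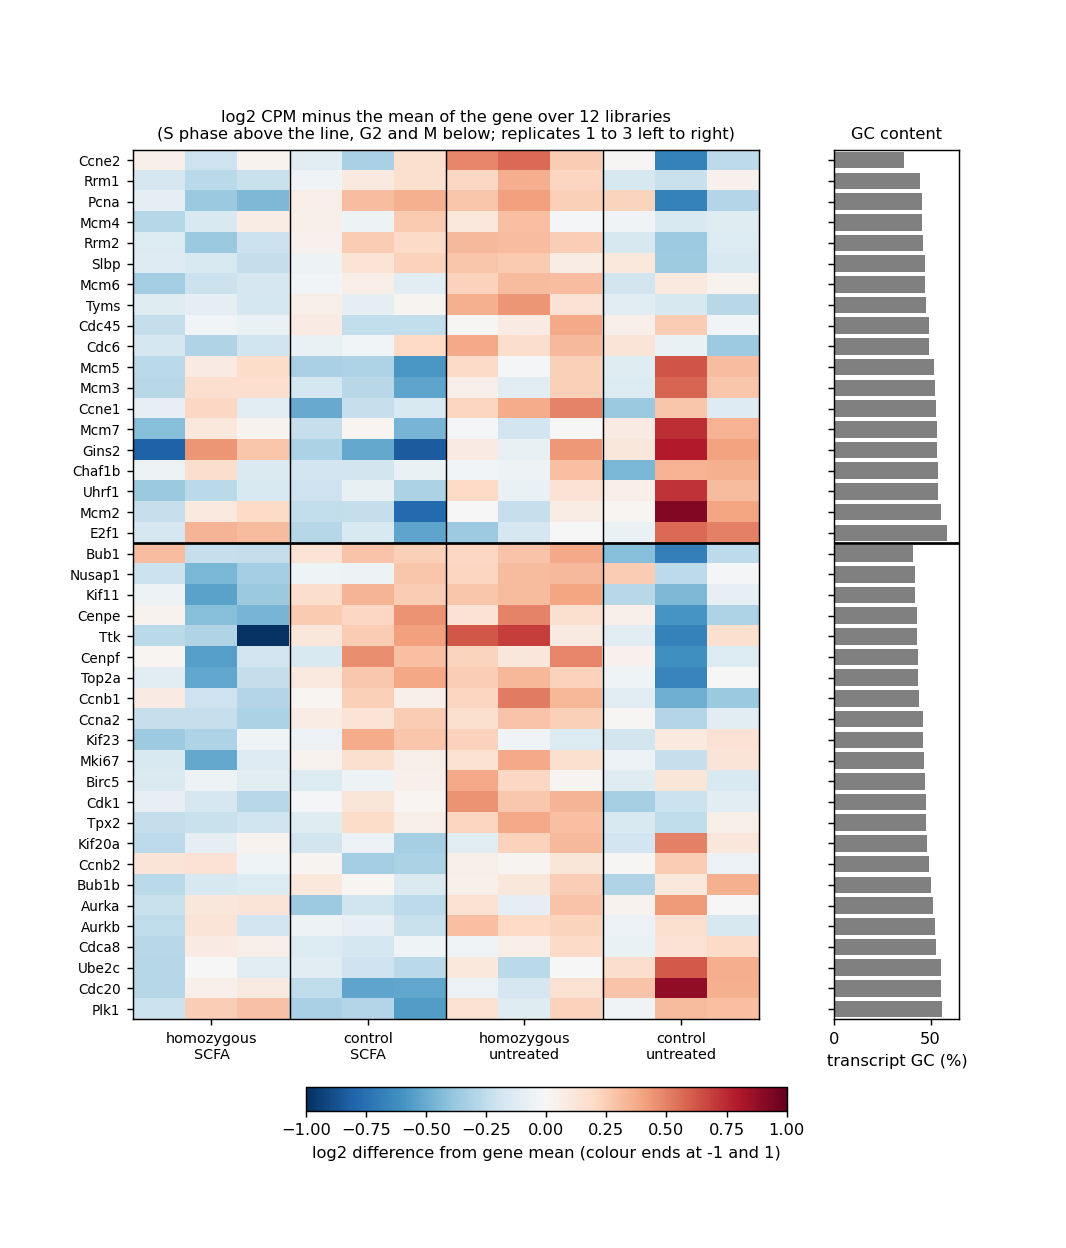
Level of each of the 42 genes in each library as log2 CPM minus the mean of the gene over the 12 libraries (red higher, blue lower), with the GC content of its longest coding transcript in percent at the right; rows run from low to high GC within each phase. Control untreated replicate 2 is low for the low-GC genes at the top of each block and high for the high-GC genes at its foot.

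The first question was how the genotype changed these genes in untreated mice. In homozygous untreated libraries, 4 of 19 S phase genes (Rrm1, Rrm2, Tyms and Ccne2) and 6 of 23 G2 and M phase genes (Cdk1, Ccnb1, Ccna2, Bub1, Kif11 and Tpx2) rose relative to control untreated libraries, and 1, Cdc20, fell. Of all 15674 genes tested, 6.69% rose and 8.13% fell in the same comparison at a Benjamini-Hochberg adjusted p under 0.05 in edgeR's quasi-likelihood test. The median log2 fold change was 0.24 over the S phase genes and 0.28 over the G2 and M phase genes, beside -0.04 over all genes tested.

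Rrm2 was at 399, 395 and 377 CPM in homozygous untreated libraries, against 284, 248 and 289.6 CPM in control untreated libraries. The groups did not overlap, and the log2 fold change was 0.51 ± 0.11 (± SE) with an edgeR adjusted p of 0.0096. Its partner subunit Rrm1 rose by 0.37 ± 0.11 (adjusted p = 0.0366) and Tyms by 0.50 ± 0.12 (adjusted p = 0.0166). Ccne2, a cyclin E of S phase entry, averaged 157 ± 17.3 CPM in homozygous untreated and 94.9 ± 22.2 CPM in control untreated libraries (SD, n = 3 each), a rise of 0.73 ± 0.17 (adjusted p = 0.0154).

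Cdk1, the kinase that starts mitosis, was at 84.6, 74.8 and 78.5 CPM in homozygous untreated libraries, against 49.4, 53.4 and 57.8 CPM in control untreated libraries. Every homozygous library lay above every control library, with a log2 fold change of 0.57 ± 0.12 (adjusted p = 0.00781). Its cyclin Ccnb1 rose by 0.67 ± 0.14 (adjusted p = 0.00793), and Ccna2, the cyclin of S phase and early mitosis, by 0.35 ± 0.11 (adjusted p = 0.0482). Bub1, a spindle checkpoint kinase, was at 134, 142 and 151 CPM in homozygous untreated libraries, against 86.4, 72.3 and 96.7 CPM in control untreated libraries. These did not overlap either, and the rise of 0.74 ± 0.16 was the largest of any member in this comparison (adjusted p = 0.00845). The spindle motor Kif11 rose by 0.59 ± 0.14 (adjusted p = 0.0125) and the spindle assembly factor Tpx2 by 0.41 ± 0.12 (adjusted p = 0.0397). Cdc20, which activates the anaphase-promoting complex, went the other way, with 60.5, 56.0 and 70.2 CPM in homozygous untreated libraries, against 77.0, 116 and 80.5 CPM in control untreated libraries. The highest control value was that of replicate 2, and the log2 fold change was -0.55 ± 0.17 (adjusted p = 0.0449), or -0.37 (adjusted p = 0.187) without that library. The 15 S phase genes that did not pass lay between -0.54 and 0.51 on the log2 scale, and the 16 G2 and M phase genes that did not pass between -0.44 and 0.65.

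The fold changes followed transcript GC content, with a Spearman correlation of -0.84 over the 42 genes and of -0.50 over 15385 tested genes with a transcript (a description, since all points share the same libraries). With offsets for GC content and length 5 of the 11 members were still called, Rrm2, Tyms, Ccnb1, Cdk1 and Tpx2. In all 7 members were then called, beside 1577 of all 15674 genes tested. Rrm2, Cdk1 and Bub1 were called in all 12 fits that left out 1 library. The number of members called was 20 without control untreated replicate 1, 4 without control untreated replicate 2 (Rrm2, Ccnb1, Cdk1 and Bub1), 6 without control untreated replicate 3, and 5, 4 and 7 without homozygous untreated replicates 1, 2 and 3.

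The second question was the effect of the genotype under SCFA. Here the direction was the opposite for most of the genes that passed: 5 of 23 G2 and M phase genes fell in homozygous SCFA libraries relative to control SCFA libraries and 1, Plk1, rose, while 1 of 19 S phase genes, Rrm2, fell and none rose. Of all genes tested, 8.89% rose and 8.47% fell. Over both lists 7 of the 42 members were called, 1 higher and 6 lower. Of all 15674 genes tested 2722 were called, near the same share, so the members were not called more often than other genes. The median log2 fold change was 0.02 over the S phase genes and -0.24 over the G2 and M phase genes, beside -0.02 over all genes.

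Kif11 was at 201, 144 and 161 CPM in homozygous SCFA libraries, against 235, 264 and 249 CPM in control SCFA libraries. The groups did not overlap, and the log2 fold change was -0.56 ± 0.14 (adjusted p = 0.0111). Ccna2 was at 139, 138 and 131 CPM in homozygous SCFA libraries, against 171, 179 and 194 CPM in control SCFA libraries, again without overlap, with -0.42 ± 0.11 (adjusted p = 0.0196). Top2a was at 522, 394 and 477 CPM in homozygous SCFA libraries, against 603, 681 and 738 CPM in control SCFA libraries. All 3 homozygous values lay below all 3 control values, with -0.54 ± 0.16 (adjusted p = 0.0345). Ttk, the checkpoint kinase also called MPS1, showed the largest fall, -0.75 ± 0.24 (adjusted p = 0.0413), and Cenpe, a kinetochore motor, fell by 0.58 ± 0.18 (adjusted p = 0.0385). Rrm2 averaged 270.3 ± 22.0 CPM in homozygous SCFA and 356 ± 26.0 CPM in control SCFA libraries, with -0.40 ± 0.11 (adjusted p = 0.0233). Pcna, the second S phase gene by p, missed the threshold with -0.55 ± 0.19 (adjusted p = 0.0568). Plk1, a kinase needed from mitotic entry to cytokinesis, was at 40.1, 55.2 and 57.2 CPM in homozygous SCFA libraries, against 37.3, 38.0 and 31.6 CPM in control SCFA libraries. Its lowest homozygous value lay just above its highest control value, and the rise was 0.51 ± 0.17 (adjusted p = 0.0469). The 18 S phase genes that did not pass lay between -0.55 and 0.60, and the 17 G2 and M phase genes that did not pass between -0.45 and 0.39.

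None of these 7 calls held with the GC and length offsets, under which Kif11 stood at -0.21 (adjusted p = 0.254) and Ttk at -0.44 (adjusted p = 0.143). The 2 members called with the offsets were both higher, Mcm5 (0.43, adjusted p = 0.0199) and Ccnb2 (0.44, adjusted p = 0.0229). Of all 15674 genes tested, 3165 were called with the offsets and 2722 without them, a larger share than of the members with the offsets. The median of the G2 and M phase genes moved to -0.003, while the median over all genes tested moved from -0.02 to 0.11. In the fits that left out 1 library, 0 members were called without control SCFA replicate 2 or 3 or homozygous SCFA replicate 2 or 3, 4 without control SCFA replicate 1 or homozygous untreated replicate 2, 2 and 3 without homozygous untreated replicates 1 and 3, and no member was called in all 12; the Spearman correlation with GC content was 0.82 over the 42 genes and 0.43 over all genes.

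**Figure D3:**
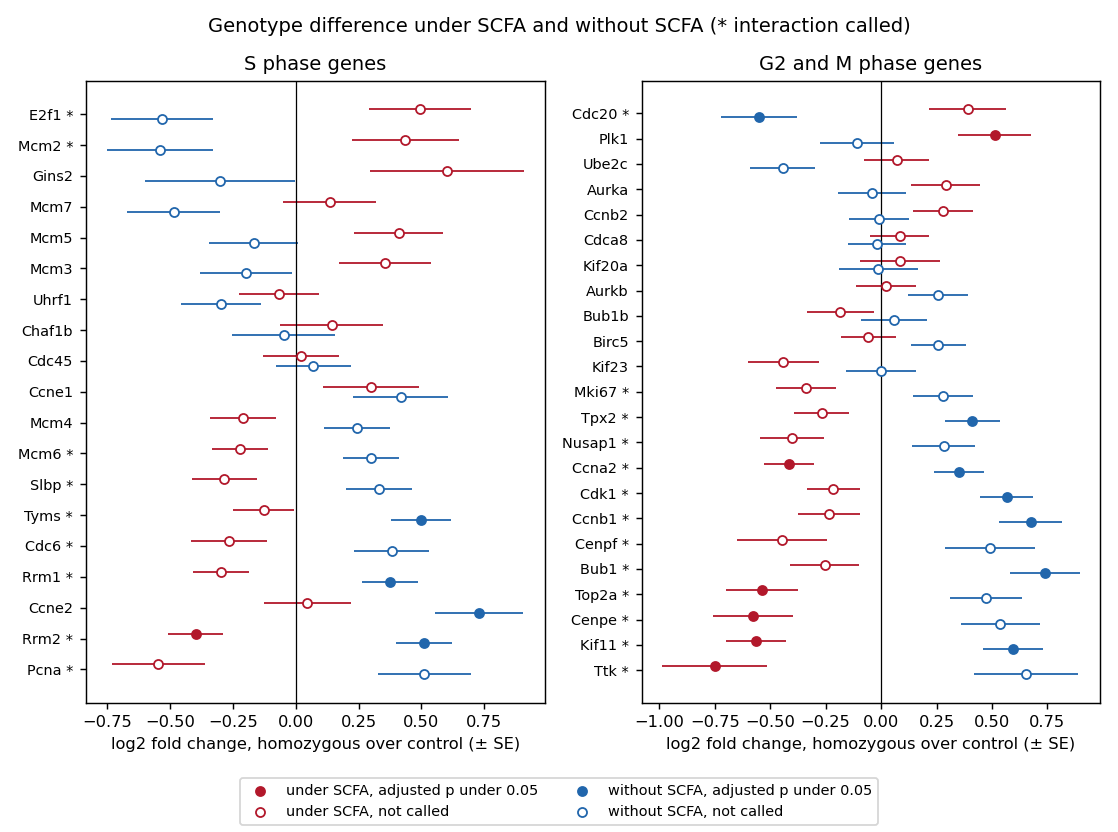
Log2 fold change of homozygous over control libraries for each gene, under SCFA (red) and without SCFA (blue), with bars of 1 SE from edgeR; filled points had an adjusted p under 0.05, and a star marks genes called in the interaction. Kif11 lies at -0.56 under SCFA and 0.59 without, and Cdc20 at 0.39 under SCFA and -0.55 without.

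Whether the genotype difference itself depended on SCFA was tested by the interaction, the genotype difference under SCFA minus that without SCFA. It passed for 22 of the 42 genes: 7 S phase and 12 G2 and M phase genes had a lower genotype difference under SCFA, and 2 S phase genes (Mcm2, E2f1) and 1 G2 and M phase gene (Cdc20) a higher one. Over all genes 13.6% were called higher and 11.6% lower. The median interaction was -0.12 over the S phase genes and -0.62 over the G2 and M phase genes, beside -0.08 over all genes.

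Among the replication genes, Rrm2 had the smallest p, with -0.91 ± 0.16 (adjusted p = 0.00196), the difference between -0.40 ± 0.11 under SCFA and 0.51 ± 0.11 without. Pcna was at 137, 112 and 107 CPM in homozygous SCFA and 153, 181 and 186 CPM in control SCFA libraries, and at 176, 194 and 172 CPM in homozygous untreated and 170.2, 91.2 and 119 CPM in control untreated libraries. Homozygous values were below the controls under SCFA and above them without SCFA, and the interaction was -1.06 ± 0.26 (adjusted p = 0.0113). Rrm1 stood at -0.67 ± 0.16 (adjusted p = 0.00821) and Tyms at -0.63 ± 0.17 (adjusted p = 0.0172). Cdc6 (-0.65 ± 0.21, adjusted p = 0.0381), Slbp (-0.61 ± 0.18, adjusted p = 0.0263) and Mcm6 (-0.52 ± 0.16, adjusted p = 0.0273) passed by less. In the other direction, E2f1 was at 19.7, 28.1 and 27.6 CPM in homozygous SCFA and 18.2, 20.0 and 15.4 CPM in control SCFA libraries, and at 17.2, 19.7 and 22.2 CPM in homozygous untreated and 21.2, 32.9 and 31.4 CPM in control untreated libraries. The genotypes overlapped in both settings. The interaction of E2f1 was 1.02 ± 0.29 (adjusted p = 0.0192), and that of Mcm2 0.97 ± 0.30 (adjusted p = 0.0292).

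Of the mitotic genes, Kif11 had the smallest p, with an interaction of -1.16 ± 0.19 (adjusted p = 0.0016). It was at 253, 259.8 and 274 CPM in homozygous untreated and 172, 152 and 197 CPM in control untreated libraries, beside the SCFA values given above. The largest was that of Ttk, -1.40 ± 0.33 (adjusted p = 0.00903), with 29.3, 28.6 and 17.8 CPM in homozygous SCFA and 38.2, 42.2 and 47.0 CPM in control SCFA libraries, and 54.3, 57.0 and 37.5 CPM in homozygous untreated and 32.9, 22.2 and 39.5 CPM in control untreated libraries. Under SCFA the genotypes did not overlap, and without SCFA the lowest homozygous value lay below the highest control value. Of the mitotic cyclins and their kinase, Ccnb2 was not called (0.29, adjusted p = 0.283), and Ccna2 was called with -0.77 ± 0.16 (adjusted p = 0.00478), Ccnb1 with -0.91 ± 0.20 (adjusted p = 0.00647) and Cdk1 with -0.78 ± 0.17 (adjusted p = 0.00573). The kinetochore and chromosome genes Bub1 (-0.99 ± 0.22, adjusted p = 0.00679), Cenpe (-1.12 ± 0.25, adjusted p = 0.00742) and Top2a (-1.01 ± 0.23, adjusted p = 0.00752) followed. Mki67, the proliferation antigen Ki-67 that coats mitotic chromosomes, Cenpf, Tpx2 and the spindle protein Nusap1 were called with interactions of -0.94 to -0.62. Cdc20 was called in the other direction, with 0.94 ± 0.24 (adjusted p = 0.0134). Ccnb2, Aurka, Aurkb, Plk1, Bub1b, Birc5, Kif23, Kif20a, Ube2c and Cdca8 were not called, between -0.44 and 0.62, nor were Mcm3, Mcm4, Mcm5, Mcm7, Cdc45, Gins2, Uhrf1, Chaf1b, Ccne1 and Ccne2 of S phase, between -0.68 and 0.90.

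Transcript GC content divided the genes called here. The 19 genes with a lower interaction had a median GC content of 45.3% and the 3 with a higher one of 55.6%, and the Spearman correlation of the interaction with GC content was 0.90 over the 42 genes. All 21 members below the median GC of 47.8% had a negative interaction, 17 of them called. Over all genes the correlation was 0.59, and the median interaction was -0.62 in the third of genes with the lowest GC content and 0.81 in the third with the highest. With the GC and length offsets 5 of the 42 members were called, beside 1678 of all 15674 genes tested, near the same share. All 5 had a lower genotype difference under SCFA. Rrm2 (-0.47, adjusted p = 0.0156), Ccna2 (-0.36, adjusted p = 0.039), Cdk1 (-0.52, adjusted p = 0.0262) and Cenpe (-0.51, adjusted p = 0.048) were among the 22, and Aurkb (-0.50, adjusted p = 0.0284) was not. Under those offsets Mcm2 moved to 0.24 (adjusted p = 0.451), E2f1 to 0.03 (adjusted p = 0.94) and Cdc20 to 0.26 (adjusted p = 0.327). In the 12 fits without 1 library, 13 of the 22 calls held in every fit: Pcna, Rrm1 and Rrm2 of S phase, and Ccna2, Ccnb1, Cdk1, Cdc20, Bub1, Top2a, Kif11, Cenpe, Tpx2 and Ttk of G2 and M phase.

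**Figure D4:**
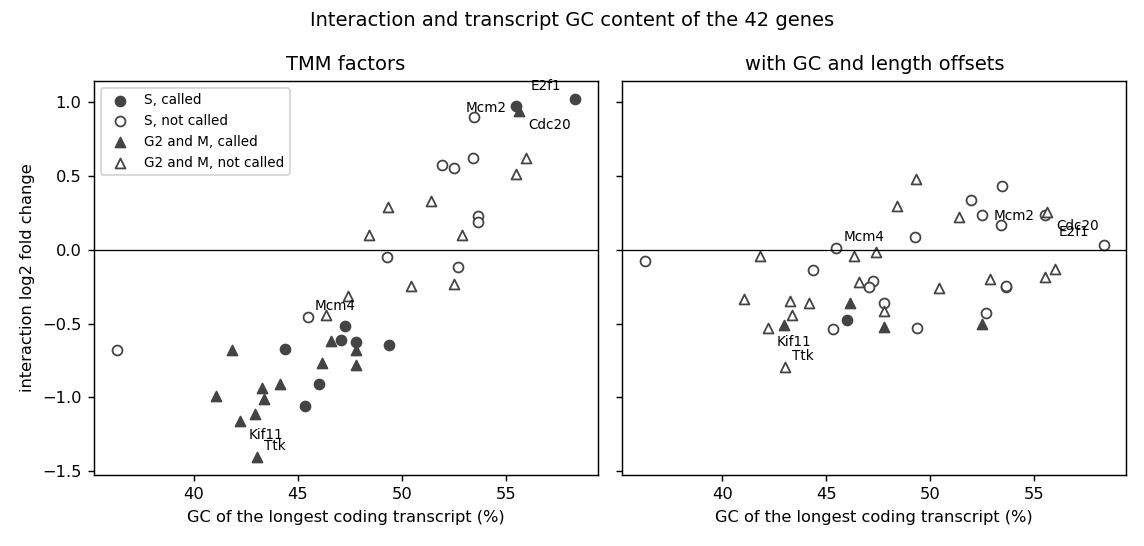
Interaction log2 fold change of each of the 42 genes against the GC content of its longest coding transcript in percent, with TMM factors (left) and with GC and length offsets (right); circles are S phase genes, triangles G2 and M phase genes, and filled symbols were called. At the left the genes lie along a rising band (Spearman 0.90), and 22 are called; at the right 5 are called, all below 0.

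The MCM2-7 subunits, which form 1 complex, differed among themselves along GC content, though no subunit passed the test in either genotype comparison. In the comparison of homozygous untreated with control untreated libraries, Mcm4 (45.5% GC) stood at 0.24 ± 0.13 and Mcm6 (47.3% GC) at 0.30 ± 0.11, while Mcm5 (51.9% GC) stood at -0.17 ± 0.18, Mcm3 (52.5% GC) at -0.20 ± 0.18, Mcm7 (53.4% GC) at -0.49 ± 0.18 and Mcm2 (55.5% GC) at -0.54 ± 0.21. Under SCFA every sign was turned, with -0.21 ± 0.13 for Mcm4, -0.22 ± 0.11 for Mcm6 and 0.13 to 0.43 for the other subunits. Under the offsets for GC content and length the values without SCFA were 0.09 for Mcm4, 0.27 for Mcm6, 0.09 for Mcm5, 0.08 for Mcm3, -0.15 for Mcm7 and -0.05 for Mcm2. Mcm3 and Mcm5 thus turned sign. Under SCFA they were 0.02 to 0.43 with the offsets, all positive, and Mcm5 was called. The median over all genes tested was then 0.11, so a positive value alone did not set a subunit above other genes. Without control untreated replicate 2 and with no offsets, the difference without SCFA was -0.30 for Mcm2, -0.32 for Mcm7, -0.04 for Mcm3 and -0.002 for Mcm5. In control untreated replicate 2, Mcm2, Mcm3, Mcm5 and Mcm7 had their highest value of the 12 libraries, and Mcm4 and Mcm6 did not.

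**Figure D5:**
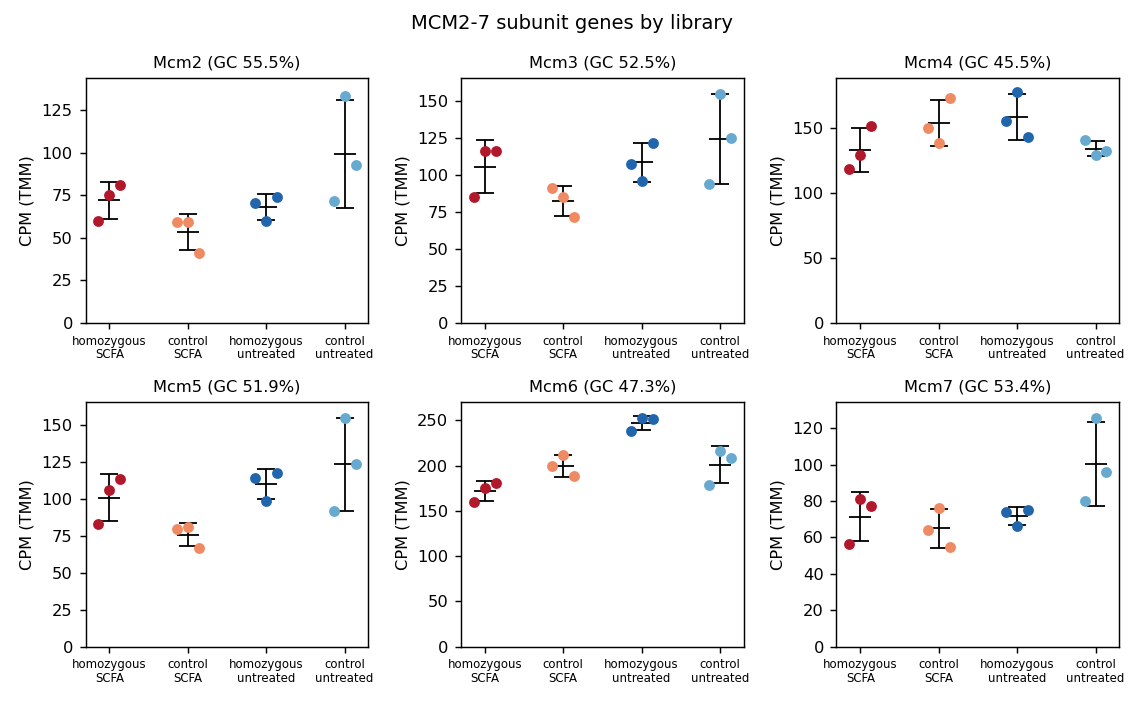
CPM (TMM factors) of the 6 MCM2-7 subunit genes in each library, with the GC content of the longest coding transcript in the panel titles; points are libraries, the horizontal mark is the group mean and the whiskers are 1 SD (n = 3). Mcm6 is at 160 to 181 CPM in the homozygous SCFA libraries, below its 239 to 252 CPM in the homozygous untreated libraries, and Mcm2 is highest in control untreated replicate 2 with 134 CPM.

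In homozygous mice every member that passed the test was lower with SCFA. Relative to homozygous untreated libraries, 5 of 19 S phase genes and 9 of 23 G2 and M phase genes fell in homozygous SCFA libraries, and none rose. Over all genes tested 3.96% rose and 5.61% fell. Of the 42 genes 38 had a negative log2 fold change, with a median of -0.36 for the S phase and -0.34 for the G2 and M phase genes, beside -0.00203 over all genes.

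Mcm6 was at 159.6, 175 and 181 CPM in homozygous SCFA libraries, against 239, 252 and 251 CPM in homozygous untreated libraries. The groups were well apart, with a log2 fold change of -0.53 ± 0.11 (adjusted p = 0.00852). Rrm2 was at 289.7, 246 and 275 CPM in homozygous SCFA libraries, against 399, 395 and 377 CPM in homozygous untreated libraries, also without overlap, and had -0.53 ± 0.11 (adjusted p = 0.00793). Rrm1 fell by 0.49 ± 0.11 (adjusted p = 0.013), Tyms by 0.45 ± 0.12 (adjusted p = 0.0309) and Cdc6, the origin loading factor, by 0.52 ± 0.15 (adjusted p = 0.0442). Thus both ribonucleotide reductase subunits and thymidylate synthase were among the 5 S phase genes that fell.

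Kif11 had the smallest p of the mitotic genes, with a log2 fold change of -0.64 ± 0.14 (adjusted p = 0.00912), from the values listed above, which did not overlap. Cdk1 was at 58.7, 55.3 and 51.1 CPM in homozygous SCFA libraries, against 84.6, 74.8 and 78.5 CPM in homozygous untreated libraries. Its highest SCFA value lay below its lowest untreated value, with -0.53 ± 0.12 (adjusted p = 0.0123). Ccna2 fell by 0.49 ± 0.11 (adjusted p = 0.0141) and Ccnb1 by 0.49 ± 0.14 (adjusted p = 0.042). Nusap1 was at 96.6, 81.4 and 88.6 CPM in homozygous SCFA libraries, against 130.3, 139.6 and 140.3 CPM in homozygous untreated libraries, with -0.62 ± 0.14 (adjusted p = 0.0146). Tpx2 fell by 0.52 ± 0.12 (adjusted p = 0.0163), and Ttk showed the largest change, -0.97 ± 0.24 (adjusted p = 0.0186). Mki67 averaged 133 ± 19.0 CPM in homozygous SCFA and 186 ± 17.4 CPM in homozygous untreated libraries, a fall of 0.49 ± 0.14 (adjusted p = 0.0351), and Top2a fell by 0.55 ± 0.16 (adjusted p = 0.0472). The 14 S phase genes that did not pass lay between -0.60 and 0.35, and the 14 G2 and M phase genes that did not pass between -0.54 and 0.03.

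With the GC and length offsets 12 of the 14 calls held, all but Cdc6 and Ccnb1. Under them 17 members were called, all lower, beside 2017 of all 15674 genes tested. The Spearman correlation with GC content was 0.77 over the 42 genes and 0.31 over all genes. Mcm6 alone was called in all 12 fits that left out 1 library, and the number of members called was 1 without homozygous SCFA replicate 2, 2 without homozygous SCFA replicate 3, and 7, 4 and 5 without homozygous untreated replicates 1, 2 and 3, all of them lower.

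In control mice SCFA went with a split within the same lists. Relative to control untreated libraries, 7 of 19 S phase genes fell in control SCFA libraries and 1 rose, and of the 23 G2 and M phase genes 4 rose and 3 fell. Of all genes tested 8.89% rose and 13% fell. The median log2 fold change was -0.22 over the S phase and 0.13 over the G2 and M phase genes, beside 0.04 over all genes.

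Cdc20 had the smallest p, at 52.9, 43.6 and 44.0 CPM in control SCFA libraries, against 77.0, 116 and 80.5 CPM in control untreated libraries. These did not overlap, and the log2 fold change was -0.96 ± 0.17 (adjusted p = 0.00503). Ube2c, its partner enzyme in ubiquitin transfer, was at 55.9, 52.5 and 50.2 CPM in control SCFA libraries, against 68.2, 92.7 and 77.8 CPM in control untreated libraries. Ube2c fell by 0.59 ± 0.15 (adjusted p = 0.014) and Plk1 by 0.59 ± 0.17 (adjusted p = 0.0237). Of the helicase subunits Mcm2 fell by 0.90 ± 0.21 (adjusted p = 0.012), Mcm5 by 0.70 ± 0.18 (adjusted p = 0.0151), Mcm7 by 0.63 ± 0.18 (adjusted p = 0.0277) and Mcm3 by 0.59 ± 0.18 (adjusted p = 0.0339). Uhrf1, which carries DNA methylation through replication, fell by 0.59 ± 0.16 (adjusted p = 0.0192), E2f1 by 0.67 ± 0.20 (adjusted p = 0.0312) and Gins2, the least abundant member, by 1.00 ± 0.30 (adjusted p = 0.0324). Bub1 rose by 0.67 ± 0.16 (adjusted p = 0.0112), Kif11 by 0.52 ± 0.14 (adjusted p = 0.0171), Cenpe by 0.57 ± 0.18 (adjusted p = 0.0355) and Ccnb1 by 0.42 ± 0.14 (adjusted p = 0.0471). Rrm2 was the only S phase gene that rose, by 0.38 ± 0.11 (adjusted p = 0.0271).

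The 5 genes that rose all lay below the members' median GC content and the 10 that fell all above it, and the Spearman correlation was -0.89 over the 42 genes and -0.63 over all genes. With the GC and length offsets 2 of the 15 calls held, Cdc20 (-0.45, adjusted p = 0.026) and Mcm5 (-0.49, adjusted p = 0.0308). Under them 3 members were called, all lower, beside 909 of all 15674 genes tested. The number of members called was 2 without control untreated replicate 2 (Cdc20 and Mcm2), 7 without control untreated replicate 3, 6 without control SCFA replicate 2 and 1, Cdc20, without control SCFA replicate 3.

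The libraries of each group enter 2 of the 4 comparisons between 2 groups and the interaction, so the calls are not independent. Kif11 and Rrm2 passed in all 4 comparisons between 2 groups and in the interaction. How many of all genes passed in all of them, or in none, was not counted. The 12 members called in none were Mcm4, Cdc45 (a helicase cofactor), Chaf1b (a histone chaperone subunit) and Ccne1 of S phase, and Ccnb2, Aurka, Aurkb, Bub1b, Birc5 (survivin), Kif23, Kif20a and Cdca8 of G2 and M phase. Aurkb, Birc5 and Cdca8 encode 3 subunits of the chromosomal passenger complex. Where 2 genes overlap on opposite strands, reads of the shared stretch may not be told apart, as no strand setting is stated for the counting. Overlap was taken over whole gene spans, introns included, so the reads affected may be few. Members that overlap a protein-coding gene on the other strand in GENCODE M21 are Ccna2 (overlapping Exosc9), Cdc20 (Elovl1), Ube2c (Tnnc2), Nusap1 (Oip5), Ccne2 (Ints8), Cdc45 (Ufd1), Kif20a (Cdc23), Mcm7 (Ap4m1, Cops6), Cdca8 (9930104L06Rik) and Gins2 (Gse1, Gm20388). Kif11 and Cenpf overlap processed pseudogenes, and Top2a, Mki67, Plk1, Slbp, Rrm1, Chaf1b and Tpx2 overlap small RNAs or other transcripts not annotated as coding.

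Other genes of the pathway were counted on lists drawn up beside the members. The counts of each list below are to be read beside all genes tested. Of these 6.69% rose and 8.13% fell for genotype without SCFA, and 8.89% rose and 8.47% fell under SCFA. With SCFA 3.96% rose and 5.61% fell in homozygous mice, and 8.89% rose and 13% fell in control mice. In the interaction 13.6% were higher and 11.6% lower. The medians over all genes were -0.04, -0.02, -0.002, 0.04 and -0.08 in that order. With the GC and length offsets 24 of the 46 calls named from these lists held, 4 of 11 in the interaction and 5 of 6 for SCFA in homozygous mice. Of 29 further replication genes, 3 rose and 1 fell in homozygous untreated relative to control untreated libraries, 1 fell under SCFA between the genotypes, 6 fell with SCFA in homozygous mice, 5 fell with SCFA in control mice, and 1 was higher and 8 lower in the interaction. Hells, a helicase of the SNF2 family needed for DNA methylation, was at 99.0, 84.5 and 78.9 CPM in homozygous SCFA libraries, against 152, 166 and 162 CPM in homozygous untreated libraries, without overlap. It fell by 0.87 ± 0.20 (adjusted p = 0.0158), followed by Wdhd1 (-0.71 ± 0.18, adjusted p = 0.0225). In the interaction Hells stood at -1.26 ± 0.29 (adjusted p = 0.00765) and the clamp loader subunit Rfc4 at -1.25 ± 0.28 (adjusted p = 0.00661). Gins1 (0.75 ± 0.19, adjusted p = 0.0219) rose and Pold1, the catalytic subunit of polymerase delta, fell (-0.91 ± 0.24, adjusted p = 0.0235) in homozygous untreated relative to control untreated libraries. Rfc3 fell under SCFA between the genotypes (-0.59 ± 0.16, adjusted p = 0.0233), and Pold1 (-0.98 ± 0.24, adjusted p = 0.0134) and Chaf1a (-0.92 ± 0.24, adjusted p = 0.0156) fell with SCFA in control mice. With the offsets Pold1 stood at -0.26 between the untreated genotypes and -0.25 with SCFA in control mice, Chaf1a at -0.46, Rfc3 at -0.36 and the interaction of Rfc4 at -0.57. None of these was called, while the calls of Gins1, Hells and Wdhd1 held. The list's median log2 fold changes were 0.22 for genotype without SCFA, -0.18 for genotype under SCFA, -0.40 for SCFA in homozygous mice, 0.06 for SCFA in control mice and -0.56 for the interaction.

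Of 35 further mitotic genes, 4 rose and 3 fell in homozygous untreated relative to control untreated libraries (median 0.23), and 3 rose and 6 fell in homozygous SCFA relative to control SCFA libraries (median -0.24). With SCFA 4 fell in homozygous mice (median -0.38), and 5 rose and 7 fell in control mice (median 0.08). In the interaction 4 were higher and 12 lower (median -0.37). Ncapg, a subunit of condensin I, was at 103, 93.8 and 99.2 CPM in homozygous SCFA libraries, against 146, 178 and 191 CPM in homozygous untreated libraries, a fall of 0.80 ± 0.19 (adjusted p = 0.0153), and its interaction was -1.55 ± 0.26 (adjusted p = 0.0018). Another subunit of the same complex, Ncapd2, had an interaction of 1.16 ± 0.21 (adjusted p = 0.0027), the opposite direction. Cdc25b, the phosphatase that activates CDK1 complexes, was at 26.9, 32.7 and 32.9 CPM in homozygous SCFA libraries, against 57.7, 56.3 and 54.0 CPM in control SCFA libraries, and at 46.2, 41.8 and 41.6 CPM in homozygous untreated libraries, against 61.7, 97.4 and 93.0 CPM in control untreated libraries. It was lower in the homozygous libraries in both settings without overlap, with a log2 fold change of -0.86 ± 0.16 (adjusted p = 0.00273) under SCFA and -0.96 ± 0.16 (adjusted p = 0.00197) without. Ncapd2 fell without SCFA (-0.82 ± 0.15, adjusted p = 0.00315) and Ncapg under SCFA (-0.71 ± 0.19, adjusted p = 0.0179) in homozygous relative to control libraries. With SCFA, Kif4 fell in homozygous mice (-0.64 ± 0.17, adjusted p = 0.0253), and Ncapd2 (-0.98 ± 0.15, adjusted p = 0.00278) and the anaphase-promoting complex activator Fzr1 (-1.29 ± 0.20, adjusted p = 0.0029) fell in control mice. With the offsets Ncapg under SCFA between the genotypes was lost (-0.36, adjusted p = 0.102), and the other calls named from this list held.

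Upstream of S phase, Tfdp2, a dimer partner of the E2F factors, was at 30.8, 27.3 and 30.6 CPM in homozygous SCFA libraries, against 120.1, 122 and 125 CPM in control SCFA libraries, and at 82.3, 68.4 and 61.3 CPM in homozygous untreated libraries, against 169, 135 and 152 CPM in control untreated libraries. The 4 groups did not overlap, with homozygous SCFA libraries lowest and control untreated libraries highest. Tfdp2 fell by 2.05 ± 0.14 under SCFA (adjusted p = 1.15e-07) and by 1.10 ± 0.13 without SCFA (adjusted p = 0.000132), fell by 1.26 ± 0.14 with SCFA in homozygous mice (adjusted p = 2.47e-05), and had an interaction of -0.95 ± 0.19 (adjusted p = 0.00396). With the GC and length offsets these differences of Tfdp2 stood at -1.70 under SCFA and -1.21 without SCFA, both called, and its interaction at -0.48 (adjusted p = 0.052).

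Of the 19 E2F, RB and DREAM/MuvB genes, 1 rose and 2 fell without SCFA between the genotypes (median 0.11). Under SCFA none rose and 2 fell between the genotypes (median 0.000962). Over all genes tested 6.69% rose and 8.13% fell without SCFA, and 8.89% rose and 8.47% fell under it. With SCFA none rose and 2 fell in homozygous mice (median -0.18), and 1 rose and 4 fell in control mice (median -0.02). In the interaction 2 were higher and 6 lower (median -0.22). The pocket protein gene Rbl1 rose without SCFA (0.55 ± 0.12, adjusted p = 0.0114), and Rbbp4 fell under SCFA between the genotypes (-0.39 ± 0.10, adjusted p = 0.0191) and with SCFA in homozygous mice (-0.35 ± 0.10, adjusted p = 0.0445). E2f2 (-0.80 ± 0.14, adjusted p = 0.00422) and E2f4 (-0.83 ± 0.19, adjusted p = 0.0104) fell with SCFA in control mice, and Lin9 had a negative interaction (-0.92 ± 0.23, adjusted p = 0.0117). None of these calls of Rbl1, Rbbp4, E2f2, E2f4 and Lin9 held with the offsets. Rbl1 then stood at 0.27 (adjusted p = 0.109), Rbbp4 at -0.04 and -0.19, E2f2 at -0.26, E2f4 at -0.28 and Lin9 at -0.28.

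Among the 5 tested CDK inhibitors, Cdkn1a, which encodes p21, was at 53.0, 76.3 and 72.6 CPM in homozygous SCFA libraries, against 25.1, 24.9 and 23.3 CPM in control SCFA libraries, and at 79.3, 73.9 and 94.3 CPM in homozygous untreated libraries, against 44.1, 67.1 and 52.7 CPM in control untreated libraries. The homozygous libraries were above the controls in both settings, by 1.46 ± 0.18 (adjusted p = 6.68e-05) under SCFA and 0.59 ± 0.17 (adjusted p = 0.0358) without, and the control SCFA libraries were the lowest of all, with -1.16 ± 0.18 against control untreated libraries (adjusted p = 0.00278). With the GC and length offsets the rises of Cdkn1a between the genotypes stood at 1.23 (adjusted p = 2.32e-06) under SCFA and 0.93 (adjusted p = 5.69e-05) without, and its interaction at 0.30 (adjusted p = 0.237). Without the offsets the interaction of Cdkn1a was 0.87 ± 0.25 (adjusted p = 0.0208). Cdkn1b (p27) rose without SCFA between the genotypes (0.89 ± 0.27, adjusted p = 0.0387) and with SCFA in control mice (1.01 ± 0.27, adjusted p = 0.0178), with an interaction of -1.46 ± 0.37 (adjusted p = 0.0129). With the offsets these stood at 0.67, 0.60 and -0.88, none called. Of the inhibitors 2 rose and none fell without SCFA between the genotypes (median -0.18), 1 rose under SCFA (median 0.31), none was called with SCFA in homozygous mice (median 0.08), 1 rose and 2 fell with SCFA in control mice (median -0.35), and 2 were higher and 1 lower in the interaction (median 0.49).

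Of the 7 G1 cyclin and kinase genes, Cdk6 rose without SCFA between the genotypes (0.70 ± 0.12, adjusted p = 0.0025) and with SCFA in control mice (0.62 ± 0.12, adjusted p = 0.00678), with an interaction of -0.87 ± 0.17 (adjusted p = 0.00401). Ccnd3, a cyclin D, rose under SCFA between the genotypes (0.89 ± 0.17, adjusted p = 0.00325), fell with SCFA in control mice (-1.07 ± 0.18, adjusted p = 0.0039) and had an interaction of 1.40 ± 0.25 (adjusted p = 0.00215). With the offsets the calls of Ccnd3 held and that of Cdk6 between the untreated genotypes (0.55), but not Cdk6 with SCFA in control mice (0.20) or in the interaction (-0.35). These were the calls of that list apart from 1 further fall with SCFA in control mice, and its medians were -0.22 without and 0.02 under SCFA between the genotypes, -0.07 with SCFA in homozygous mice, -0.31 with SCFA in control mice and 0.41 in the interaction. Of 9 DNA damage checkpoint genes, Atr rose without SCFA between the genotypes (0.93 ± 0.24, adjusted p = 0.0226) and with SCFA in control mice (0.85 ± 0.24, adjusted p = 0.0241), Trp53 fell with SCFA in control mice (-0.80 ± 0.21, adjusted p = 0.0166), and Atr alone was called in the interaction (-1.39 ± 0.34, adjusted p = 0.0104). With the offsets only Atr between the untreated genotypes held (0.66). Atr and Trp53 with SCFA in control mice (0.30 and -0.41) and the interaction of Atr (-0.73) were not called. Their medians were 0.26, -0.17, -0.33, 0.15 and -0.48 for the genotypes without SCFA and under it, for SCFA in homozygous and in control mice, and for the interaction.

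Markers of the marrow's cell types moved between the same groups. Their counts called are to be read beside the same shares of all genes as those of the pathway lists. The 13 pro-B and pre-B genes summed to 122 to 141 CPM in homozygous SCFA and 1262 to 1348 CPM in control SCFA libraries, and to 515 to 538 CPM in homozygous untreated and 1379 to 1479 CPM in control untreated libraries (lowest to highest). All 13 fell between the genotypes under SCFA, 9 fell without SCFA, and Rag1, Rag2 and Vpreb2 had 0 counts in every homozygous SCFA library. The 14 erythroid genes summed to 2972 to 3327 CPM in homozygous SCFA and 11915 to 14002 CPM in control SCFA libraries, and to 9727 to 12806 CPM in homozygous untreated and 18942 to 20830.3 CPM in control untreated libraries. Under SCFA 3 of them rose and 6 fell between the genotypes, without SCFA 2 rose and 6 fell, and with SCFA 2 rose and 11 fell in homozygous mice. The 8 neutrophil precursor genes summed to 2736 to 3683 CPM in homozygous SCFA and 1885 to 2302 CPM in control SCFA libraries, and to 2972 to 3826 CPM in homozygous untreated and 2889.7 to 4143 CPM in control untreated libraries, with 6 rising between the genotypes under SCFA and 1 without. The 10 late neutrophil genes summed to 62591 to 73222 CPM in homozygous SCFA, 60022 to 64600.5 CPM in control SCFA, 58888 to 78651 CPM in homozygous untreated and 37675 to 56308 CPM in control untreated libraries, the 8 monocyte genes to 6557 to 7364, 5116 to 5722, 6535 to 6887 and 4179 to 4794 CPM in the same groups, and the 8 T cell genes to 35.7 to 40.4, 63.7 to 70.0, 58.2 to 60.2 and 85.7 to 103 CPM. Between the genotypes 4 late neutrophil genes rose and 2 fell without SCFA, and 5 rose and 0 fell under it. Of the monocyte genes 5 rose and 1 fell without SCFA, and 2 rose and 0 fell under it. Of the T cell genes 2 fell without SCFA and 3 under it, and 0 rose. Under SCFA 4 of the 8 T cell genes had a positive and 4 a negative log2 fold change. The part of these shifts in the levels of the cell cycle genes was not tested. In homozygous untreated libraries the pro-B, pre-B and erythroid sums lay below, and the sums of both cell cycle lists above, those of control untreated libraries. In homozygous SCFA libraries the pro-B, pre-B, erythroid and both cell cycle sums all lay below those of control SCFA and of homozygous untreated libraries.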

How the data were processed

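Per the labels, RNA of 12 samples came from a Qiagen RNeasy Plus Micro kit, and poly(A) sequencing used a low-input Clontech method. Reads were aligned with STAR to mm10 and counted with featureCounts, per the submitters' processing notes; no source states the versions, the gene models or whether strand was used. The table the authors deposited holds raw counts per gene symbol, not normalized by the authors, and every column was used (0 left out).

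Genes passing filterByExpr (by group, default minimum) went into 1 quasi-likelihood fit of all 12 libraries with 4 group means and TMM normalization, in edgeR 4.0.16 (R 4.3.3), with Benjamini-Hochberg adjustment over 15674 genes and calls at an adjusted p under 0.05. Library totals of 16954355 to 20748995 counts gave each member at least 80 counts per library; precision was set by the spread between libraries. The members and all lists were chosen with earlier results of these data known. Per comparison the text names members past the test, at most 8 per phase by smallest p and at least 2, and the 2 called genes with the smallest p of each further list; other members are given as well. Transcript length and GC content came from the longest coding transcript in GENCODE M21 (mm10), or the longest transcript where none is coding; 98.2% of the tested genes had one. Promoters came from RefSeq on GRCm38.p6.

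As alternatives the tests were repeated with DESeq2 1.42.0, with RLE normalization, without the low-count filter, with fits of only the groups compared, with a replicate block and with each library left out. Offsets for each library's trend with GC content and log2 length (splines with 5 degrees of freedom each) were chosen after seeing the data. Replicate pairs within a group differed by more than sampling noise (chi-square per degree of freedom 11.6 to 84.8). The procedure was tested on simulated data.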

Additional observations from a re-analysis of the deposited data

Results flagged for a closer look

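The genotype difference under SCFA differed from that without SCFA, by edgeR's test of the interaction at an adjusted p under 0.05, for 22 of the 42 cell cycle genes and 11 further pathway genes named in the report. The S phase genes with a lower difference under SCFA had interactions of -1.06 (Pcna), -0.91 (Rrm2), -0.67 (Rrm1), -0.65 (Cdc6), -0.63 (Tyms), -0.61 (Slbp) and -0.52 (Mcm6) on the log2 scale. E2f1 (1.02) and Mcm2 (0.97) had a higher one. The G2 and M phase genes with a lower difference were Ttk (-1.40), Kif11 (-1.16), Cenpe (-1.12), Top2a (-1.01), Bub1 (-0.99), Cenpf (-0.94), Ccnb1 (-0.91), Cdk1 (-0.78), Ccna2 (-0.77), Nusap1 (-0.68), Tpx2 (-0.68) and Mki67 (-0.62), and Cdc20 (0.94) had a higher one. Of the further genes, Ncapg (-1.55), Cdkn1b (-1.46), Atr (-1.39), Hells (-1.26), Rfc4 (-1.25), Tfdp2 (-0.95), Lin9 (-0.92) and Cdk6 (-0.87) were lower, and Ccnd3 (1.40), Ncapd2 (1.16) and Cdkn1a (0.87) higher. Transcript GC content moved with these values (Spearman 0.90 over the 42 genes), and 4 of the 22 calls and 4 of the 11 held with offsets for GC content and length.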

How the results depend on the processing

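RLE factors changed no count of called members by more than 1.5 times. In homozygous untreated against control untreated libraries, S phase and G2 and M phase calls were 8 and 11 with DESeq2, 0 and 4 in a fit of only those libraries (914 of all genes), and G2 and M phase calls were 4 with the GC and length offsets. In homozygous SCFA against control SCFA libraries, S phase calls were 2 with no filter, 3 with DESeq2 and 3 in a fit of only those libraries. With the offsets the G2 and M phase calls were 1, which was higher, and all genes called 3165. In control SCFA against control untreated libraries, S phase calls were 3 and all genes called 2035 in a fit of only those libraries; with the offsets the S phase, G2 and M phase and all calls were 1, 2 and 909. In homozygous SCFA against homozygous untreated libraries, S phase calls were 8 in a fit of only those libraries, and 2310 genes were called by DESeq2. In the interaction the offsets gave 1 S phase, 4 G2 and M phase and 1678 calls in all. The 63 member and 46 pathway gene values chosen by the naming rule kept their sign under the alternatives run. With the offsets 40 of the 63 and 22 of the 46 lost their call. Of the 141 member values that were not called, 45 turned sign with the offsets (among them Mcm3, Mcm5 and Uhrf1 between the untreated genotypes). In at least 1 fit without a library 31 turned sign. Of the 69 called values 0 turned sign in either. Called and named values were picked by small p in these data and so lie far from 0. That they kept their sign was largely set in advance. With library totals in place of TMM factors, the S phase sums no longer separated the untreated genotypes, and the mean was 2315 CPM in homozygous untreated and 2184 CPM in control untreated libraries, and the mean G2 and M phase sum 2810 CPM in homozygous untreated libraries.

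Leaving out 1 library at a time, S phase, G2 and M phase and all calls ranged over 1 to 10, 3 to 10 and 770 to 4333 for genotype without SCFA; over 0 to 4, 0 to 7 and 1431 to 3282 for genotype under SCFA; over 0 to 10, 1 to 11 and 613 to 5090 for SCFA in control mice; over 1 to 8, 0 to 11 and 743 to 1998 for SCFA in homozygous mice; and over 5 to 12, 10 to 14 and 2455 to 5379 for the interaction.

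Deviations of libraries with the same replicate number correlated at -0.11 to 0.04, and those with different numbers at -0.13 to 0.12. As they are taken from the means of so few libraries, these correlations cannot settle whether the numbers pair the samples. With the replicate block 4 G2 and M phase genes were called for genotype without SCFA, and no other count moved by more than 1.5 times. Depth limits mainly Gins2, which had 80 counts in its lowest library.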
